A study of Mus musculus with 6 samples.

Results

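The 36 genes described here encode enzymes and membrane proteins of the lysosome, together with the transcription factor that controls many of them. They were taken by symbol from the 32285 genes of the deposited counts, and each symbol matched 1 gene. By role they were divided into 11 cathepsins and other peptidases, 10 glycosidases, 7 lipid enzymes and their activators or carriers, 6 membrane proteins, and 2 genes of the proton pump and its regulation. Single cells of 6 mice were sequenced with a 3′ droplet assay, with 1 library for each treatment. Besides the control, 2DG, 2FF and anti-PD-L1 were given alone, and anti-PD-L1 was combined with either 2DG or 2FF. Each unique molecular identifier (UMI) counts 1 captured RNA molecule.

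Per the study's methods, KPCA mouse ovarian cancer cells were injected into the ovarian bursa of female C57BL/6 mice aged 6 to 8 weeks, so every group carried the same tumor line. In the labels, however, the source is a lymph node, and the series text speaks of young and aged mice. Cells gated as epithelial tumor cells numbered 0 to 16 per library, fibroblasts 0 to 10 and endothelial cells 0, and the tissue was not settled by these counts. 2-Deoxy-D-glucose (2DG), a glucose analog that also interferes with N-glycan synthesis, was injected every 2 days from day 9. 2FF, a fluorinated fucose analog that blocks fucosylation, was given by gavage every 2 days, and its tumor cells had been kept in 2FF for 3 days. Antibody against PD-L1, a checkpoint ligand, was injected 2 times a week over 3 weeks, beginning after day 9, with 5 mg/kg each time. Control mice received solvent and rat IgG, and all mice were sacrificed on day 30.

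Lysosomes are acidified by a proton pump, the V-ATPase, and hold hydrolases that degrade proteins, glycans and lipids taken up from outside or delivered by autophagy. Most of these hydrolases are N-glycosylated, and a mannose 6-phosphate mark on their glycans directs them from the Golgi to the lysosome. Macrophages are known for a high content of lysosomes, whereas dendritic cells keep proteolysis low, so that peptides survive for presentation on MHC class II.

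Cells were assigned to 16 classes by fixed marker genes, among which none of the 36 genes occurred. After filtering, 7703 to 9222 cells remained per library, with 61859753 to 73885214 UMIs before filtering. Macrophages numbered 908 to 1518, classical monocytes 1454 to 2915, T cells 394 to 3024 and dendritic cells 273 to 486. Neutrophils numbered 3411 in control and 280 to 515 in the other libraries, and the control library also held the fewest T cells. The lead of the chosen class was 1 marker or less in 16.1% to 21.1% of macrophages, 24.4% to 31.8% of monocytes and 38.3% to 51.2% of dendritic cells. Pairs of libraries shared 16 to 34 barcodes. Levels are UMIs per 1000000 UMIs of a class (CPM). Values listed for 6 libraries run from control to the agents given alone (2DG, then 2FF, then anti-PD-L1), and end with the combinations (2DG plus anti-PD-L1 before 2FF plus anti-PD-L1). With 1 mouse per treatment a single pair of libraries has no test, and intervals and standard errors (SE) between libraries cover counting error only.

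Macrophages devoted the largest share of their RNA to the lysosomal genes among the 5 classes compared. The 36 genes together took 1.52% of macrophage UMIs in control, 1.57% in 2DG, 1.79% in 2FF, 1.55% in anti-PD-L1, 1.70% in 2DG plus anti-PD-L1 and 1.59% in 2FF plus anti-PD-L1. The share was 1.17% to 1.27% in classical monocytes, 0.602% to 0.670% in dendritic cells, 0.505% to 0.631% in neutrophils and 0.239% to 0.284% in T cells. Macrophages and monocytes did not overlap with each other or with the other classes, whereas the ranges of dendritic cells and neutrophils overlapped. In macrophages the highest share was found in the 2FF library, where the middle cell gave 1.69% of its UMIs, against 1.44% to 1.61% in the other 5 libraries.

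**Figure D1:**
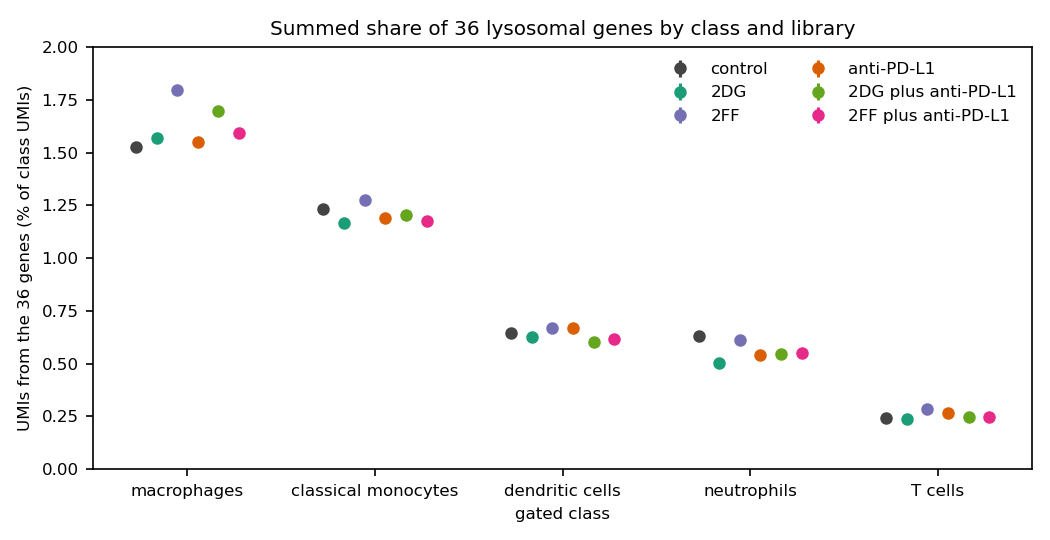
Percent of all UMIs of a class that came from the 36 lysosomal genes (y axis), for 5 gated classes (x axis) and 6 libraries (colored points, each with its 95% binomial interval, smaller than the point). Macrophages lie at 1.52% to 1.79% in the 6 libraries and T cells at 0.239% to 0.284%.

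Proteolytic enzymes were the largest group in macrophages, as in every class compared. Cathepsins and other peptidases gave 61.4% of the members' UMIs in macrophages, lipid enzymes and activators 21.3%, membrane proteins 11.4%, glycosidases 5.65%, and the pump subunit with its regulator 0.240%. The peptidases gave 54.9% in monocytes, 53.0% in T cells, 45.8% in neutrophils and 41.6% in dendritic cells. In dendritic cells the lipid group gave 35.5%, and in neutrophils membrane proteins gave 25.9%. The macrophage total was uneven, since the 4 most abundant genes (Ctss, Ctsc, Psap and Ctsb) held 48.1% and the 10 most abundant 76.3% of it. At the other end, Ctsk, Atp6v0d2, Smpd1 and Mcoln1 averaged under 20 CPM.

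Among the cathepsins, Ctss, the cysteine protease that trims the MHC class II invariant chain, was the most abundant member in macrophages. It stood at 1807 CPM in control, 2617 in 2DG, 3113 in 2FF, 2507 in anti-PD-L1, 3021 in 2DG plus anti-PD-L1 and 2748 in 2FF plus anti-PD-L1. Control was the lowest library and 2FF the highest. Ctsc, a dipeptidyl peptidase that activates granule proteases, reached 1545, 1762, 2195, 1522, 1964 and 1959 CPM in library order, with its peak also in 2FF. Ctsb, a cysteine protease of broad specificity, varied little, at 1636, 1492, 1792, 1369.5, 1722 and 1573 CPM. The asparagine-specific endopeptidase Lgmn, which activates several cathepsins, gave 1036, 870.4, 1187, 636, 1098 and 1099 CPM and was lowest in anti-PD-L1, below the other 5 libraries.

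Ctsz, a carboxypeptidase, gave 669.8, 749, 905, 812, 771 and 722 CPM. The aspartic protease Ctsd gave 831, 701, 704, 737, 642 and 704 CPM and was highest in control. Ctsl, a cysteine endopeptidase, gave 613, 525, 747, 472, 581 and 578 CPM, with the 2FF library highest and anti-PD-L1 lowest. Ctsh, an aminopeptidase, ranged from 389 to 522 CPM, and Ctsa, which shields β-galactosidase and sialidase in a complex, from 283 to 332 CPM. Tpp1, a tripeptidyl peptidase, gave 98.9, 71.3, 82.2, 73.3, 87.0 and 78.0 CPM with control highest. Ctsk, the collagen-degrading cathepsin of osteoclasts, was barely present in macrophages at 1.79 to 3.87 CPM.

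Glycosidases were far below the leading cathepsins. The most abundant were Hexa, a β-hexosaminidase subunit (191 to 225 CPM), Man2b1, an α-mannosidase (169.8 to 233), Gusb, β-glucuronidase (115 to 158), and Fuca1, α-fucosidase (89.1 to 107). Gla, α-galactosidase A, gave 83.8, 66.2, 80.7, 69.4, 93.4 and 74.2 CPM, with 2DG plus anti-PD-L1 highest. Lower ranges were found for Fuca2, a second α-fucosidase (46.6 to 52.8 CPM), the sialidase Neu1 (44.6 to 55.1), β-galactosidase Glb1 (40.4 to 51.3), β-mannosidase Manba (32.1 to 48.4) and acid α-glucosidase Gaa (19.3 to 22.4). In the 2FF library Fuca1 and Fuca2 were not past 1.5-fold of control, with log2 ratios of -0.05 (counting SE 0.05) and -0.10 (0.07). Fucosylation itself is not measured by these counts.

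In the lipid group, Psap, the precursor of the saposins that activate sphingolipid hydrolases, gave 1916, 1745, 1633, 2122, 1557 and 1489.8 CPM in macrophages. It was lowest in both combination libraries and highest in anti-PD-L1. Npc2, the soluble carrier that hands cholesterol to the membrane protein Npc1, gave 714, 929.9, 985, 1014, 986 and 841 CPM and was lowest in control. Npc1 gave 73.5, 46.9, 43.9, 48.3, 45.6 and 53.1 CPM, with control highest. Lipa, acid lipase, gave 94.0, 75.7, 65.4, 71.1, 60.9 and 58.3 CPM, again highest in control. Progranulin (Grn) ranged from 469 to 560.0 CPM, acid ceramidase Asah1 from 136 to 194 and acid sphingomyelinase Smpd1 from 6.0 to 8.61.

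Of the membrane proteins, the structural glycoprotein Lamp1 gave 621, 612, 583, 638, 575 and 527 CPM. Lamp2, a related glycoprotein needed for autophagy, gave 488, 502, 543, 426, 592 and 607 CPM and was highest in both combination libraries. The tetraspanin Cd63 gave 260.5, 299, 434, 283, 344 and 257 CPM, with 2FF highest. Cd68, a macrophage sialomucin, ranged from 261 to 303 CPM, Scarb2, the receptor that carries β-glucocerebrosidase, from 120.0 to 148, and the calcium channel Mcoln1 from 5.56 to 10.2. Tfeb, the transcription factor that binds promoters of lysosomal genes, gave 37.5, 36.3, 31.0, 39.5, 26.2 and 28.1 CPM, and both combination libraries were lowest. Atp6v0d2, a V-ATPase subunit typical of osteoclasts and some macrophages, gave 14.2, 3.20, 5.56, 6.17, 2.71 and 3.34 CPM and was the only member whose highest macrophage library exceeded the lowest by 2-fold or more on the scale of CPM + 5. The median coefficient of variation over the 6 libraries was 12.2% in macrophages, 12.4% in monocytes, 18.0% in dendritic cells, 26.6% in neutrophils and 15.1% in T cells, and low counts widen it in the smaller classes.

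**Figure D2:**
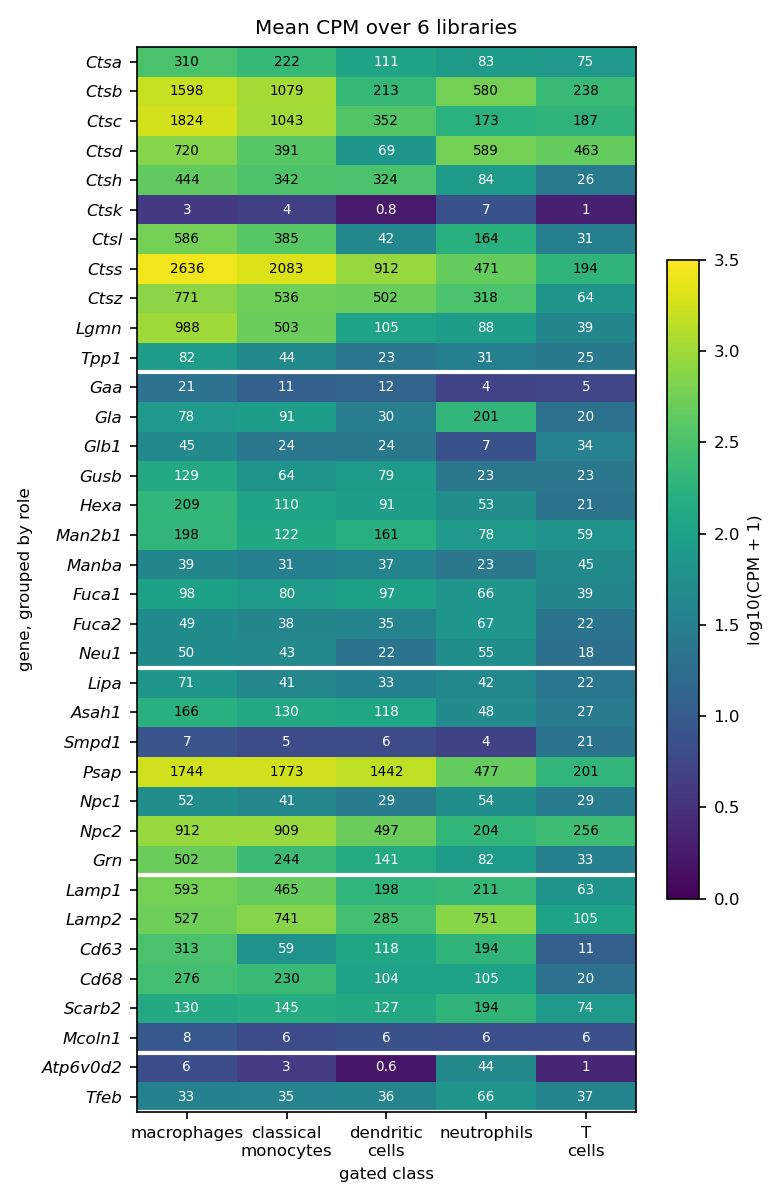
Mean level over 6 libraries of each of the 36 genes (rows, grouped by role with white lines between groups) in 5 gated classes (columns), printed as CPM and colored by log10(CPM + 1). Ctss, at 2635 CPM in macrophages and 194 in T cells, is the most abundant member. Gla, Tfeb, Scarb2, Atp6v0d2, Lamp2, Fuca2, Neu1, Npc1 and Ctsk have their highest mean in neutrophils.

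Which members distinguish macrophages from the other classes was tested over the 6 libraries, each of which gave both classes. The test was edgeR's quasi-likelihood test with the library as a term and Benjamini-Hochberg adjustment over all genes. Each SE given with it is the size of the log2 fold change over the normal quantile of its p. It is not an SE taken from the fit. A member was called when its adjusted p was under 0.05 and the difference at least 2-fold. Against classical monocytes 2 members were called higher and 0 lower, where 6.64% of all 12975 genes tested were called higher and 5.31% lower. At any size of change and adjusted p under 0.05, 24 members were higher and 5 lower (all genes 28.2% and 28.8%). Counted the same way, 31 were higher and 0 lower than in dendritic cells (31.1% and 31.0%), 22 and 7 than in neutrophils (39.1% and 29.2%), and 33 and 1 than in T cells (40.2% and 41.3%).

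Cd63 stood out between macrophages and monocytes. It averaged 313 ± 67.2 CPM (SD, n = 6 libraries) in macrophages and 58.9 ± 11.9 CPM in monocytes, a log2 fold change of 2.25 (SE 0.40, adjusted p = 1.5e-06 in edgeR), and it was higher in 6 of 6 libraries. Atp6v0d2 was called at a much lower level, with 5.87 ± 4.32 against 3.03 ± 4.67 CPM and a log2 fold change of 1.24 (adjusted p = 0.0102 in edgeR), and its spread came mostly from the control library. Below 2-fold, Grn (0.89), Gusb (0.85), Lgmn (0.82) and Ctsd (0.81) were higher in macrophages on the log2 scale. The 5 members lower in macrophages in the test were Lamp2 (-0.64), Gla (-0.38), Scarb2 (-0.31), Tfeb (-0.21) and Psap (-0.17). On the scale of CPM + 5, Scarb2 was higher in macrophages in 2 of 6 libraries, Tfeb and Psap in 3 of 6, and Gla in 0. Lamp2 averaged 527 ± 68.2 CPM in macrophages and 741 ± 120.0 CPM in monocytes and was higher in monocytes in 6 of 6 libraries. The macrophage gate included Trem2. A UMI of either state gene, Spp1 or Gpnmb, was found in 48.5% to 74.2% of macrophages and 22.4% to 75.7% of monocytes. Nearly all of these cells held Spp1. Gpnmb was detected in at most 8.04% of macrophages and 10.2% of monocytes, both in the control library. These shares are not matched for depth.

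Against dendritic cells, 18 members were called higher in macrophages and 0 lower (all genes 11.7% and 11.3%). Ctsl and Ctsd had the largest differences. Ctsl averaged 586 ± 93.3 CPM in macrophages and 41.9 ± 16.7 in dendritic cells (log2 fold change 3.86, SE 0.63), and Ctsd averaged 719.8 ± 62.6 and 68.9 ± 25.1 (3.45, SE 0.55). Lgmn, Atp6v0d2, Ctsb and Ctsc followed with 3.24, 3.24, 2.91 and 2.38, of which Atp6v0d2 had a low level in both classes. Ctss, the protease tied to MHC class II, differed less, with 2636 ± 467 CPM against 912 ± 160.1 (1.53, SE 0.26). Ctsz (0.63) and Ctsh (0.46) were higher in macrophages by less than 2-fold. Psap was nearly as abundant in dendritic cells, at 1442 ± 368 against 1744 ± 239 CPM. Fuca1, Manba, Scarb2, Mcoln1 and Tfeb were the 5 members with no difference at adjusted p under 0.05, with log2 fold changes from -0.10 to 0.37.

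Neutrophils carried a different set. Relative to them, 19 members were called higher in macrophages and 3 lower (all genes 26.0% and 18.9%). Lgmn (3.11), Ctsc (3.04), Glb1 (2.35), Grn (2.23) and Ctss (2.16) had the largest log2 fold changes toward macrophages. The 3 members called higher in neutrophils were Gla, with 201 ± 60.5 CPM against 77.9 ± 10.0, Tfeb, with 65.7 ± 16.7 against 33.1 ± 5.43, and Atp6v0d2, with 43.9 ± 47.9 against 5.87 ± 4.32. Their log2 fold changes were -1.72, -1.35 and -3.06, and each was higher in neutrophils in 6 of 6 libraries. Lamp2 (-0.90), Scarb2 (-0.94), Fuca2 (-0.82) and Neu1 (-0.51) were also lower in macrophages at adjusted p under 0.05, by less than 2-fold. On the scale of CPM + 5, Neu1 was higher in macrophages in 2 of 6 libraries. Ctsd did not differ at that limit, with 719.8 ± 62.6 CPM in macrophages and 589 ± 85.7 in neutrophils (-0.09, SE 0.12). On plain CPM + 5, without TMM scaling, its log2 ratio was 0.19 to 0.50 and above 0 in 6 of 6 libraries.

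Of the 5 classes compared, T cells held the least, with 30 members called higher in macrophages and 1 lower (all genes 21.2% and 20.3%). Cd63 (5.11), Lgmn (4.94), Ctsl (4.64) and Ctsh (4.32) differed most. The exception was Smpd1, which averaged 20.9 ± 2.69 CPM in T cells and 7.27 ± 1.06 in macrophages (log2 fold change -1.31, SE 0.25, adjusted p = 5.72e-07 in edgeR) and was higher in T cells in 6 of 6 libraries. Tfeb (0.06) and Manba (log2 fold change -0.00, SE 0.07) gave no difference at adjusted p under 0.05. Ctsd was abundant in T cells too, at 463 ± 87.5 CPM. Free RNA gives UMIs in droplets of any class, and the macrophage gene Cd68 stood in T cells at 15.6 to 25.4 CPM. Fold changes of these tests use TMM scaling and no added 5 CPM. The median of the members over T cells was 2.34 in the tests against 1.78 on plain CPM + 5, and 1.01 against 1.31 over neutrophils. Both the scaling and the added CPM enter these gaps.

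**Figure D3:**
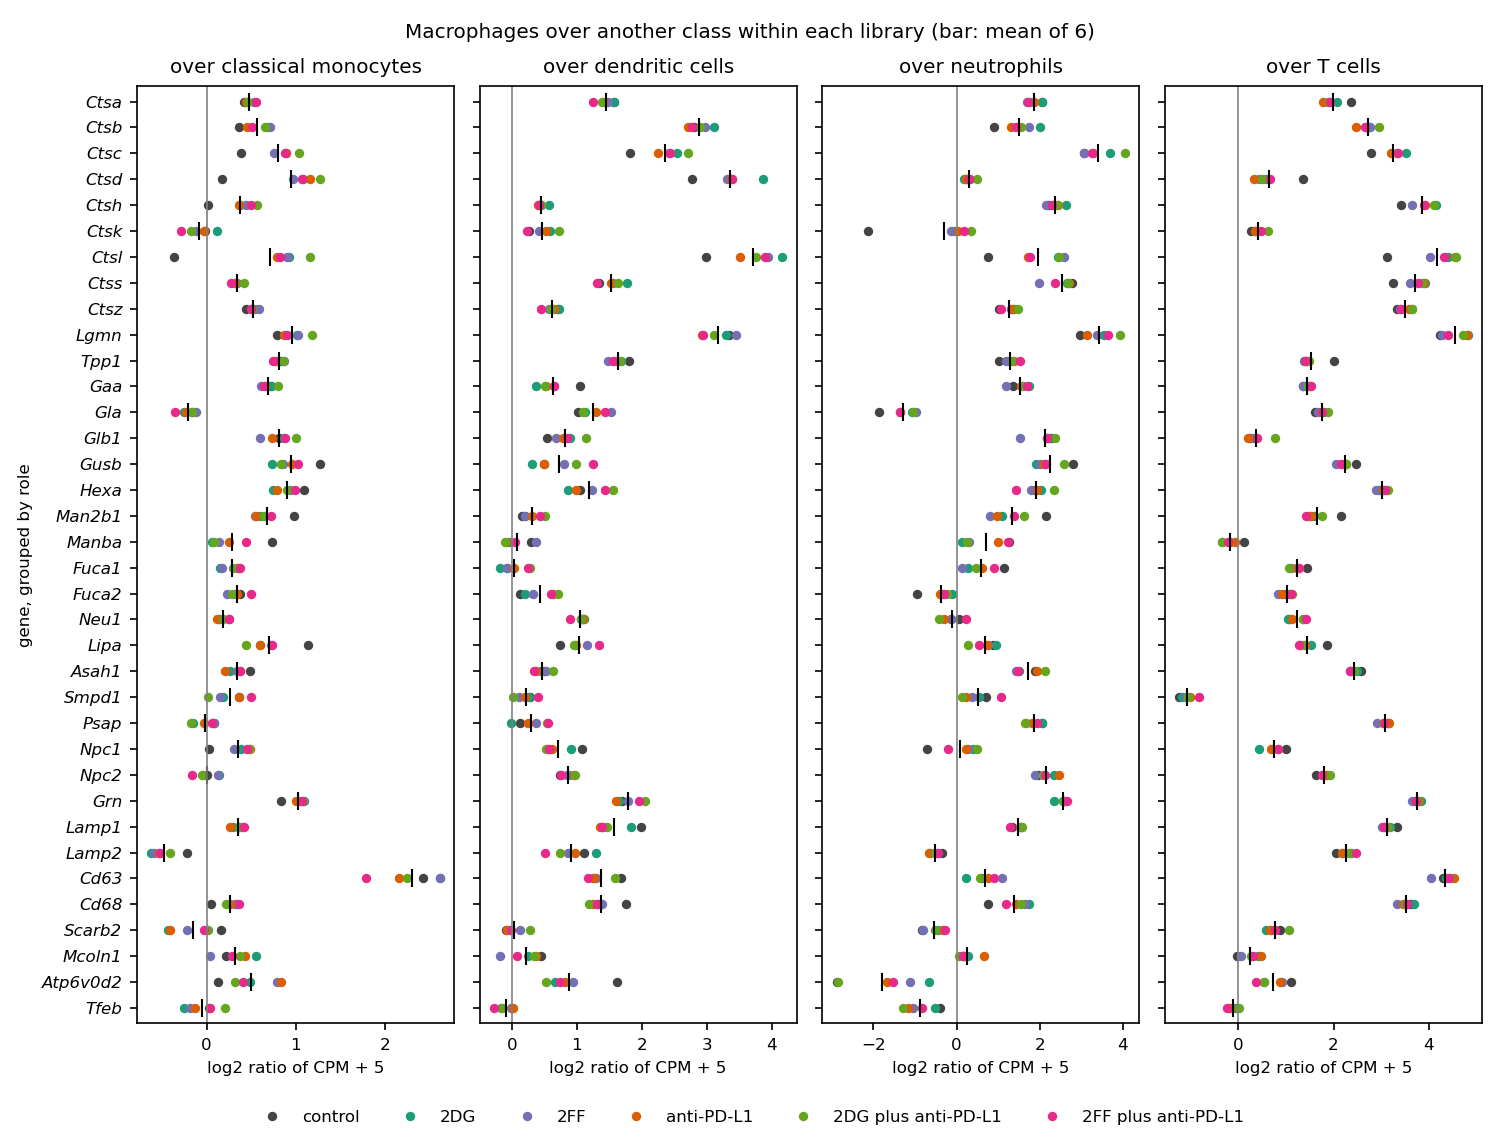
Log2 ratio of CPM + 5 in macrophages over each of 4 other classes within a library (x axis), for the 36 genes (y axis, grouped by role), with 1 colored point per library and a bar at the mean of 6. Points right of the line at 0 are higher in macrophages, as for Cd63 in every library and panel, while Gla and Tfeb lie left of it over neutrophils.

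Other lysosomal genes, listed apart from the 36, were compared between the classes in the same fits. Of 15 further V-ATPase genes, 11 were called higher in macrophages than in T cells, 2 than in dendritic cells and 0 than in monocytes, and 2 were lower than in neutrophils (Atp6v0a1 and Atp6v1a, log2 fold changes -2.01 and -1.21). Of 22 other hydrolases, 3 were higher than in monocytes, 10 than in dendritic cells, 8 than in neutrophils and 14 than in T cells. Ctsf, a cathepsin, led over monocytes with 2.41, but at a low level, with 2.51 CPM against 0.392. Of 13 other membrane proteins the counts were 0, 5, 1 and 5, with the metal transporter Slc11a1 at 3.89 over dendritic cells. Of 19 genes of enzyme delivery and regulation, 0, 4, 3 and 9 were higher and 1, 1, 4 and 2 lower, in the same order of classes. Sort1, a sorting receptor, was lower in macrophages than in monocytes (-1.60), dendritic cells (-2.15) and neutrophils (-3.25) and higher than in T cells (2.51). Among the cystatins, which inhibit cathepsins, Cst3 (-2.99) and Cst7 (-1.14) were lower than in dendritic cells and Cstb was higher (1.49). Over T cells, Cst3 (2.51) and Cstb (2.63) were higher and Cst7 was lower (-4.86).

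Whether the members moved with treatment in macrophages was described for 7 pairs of libraries by the log2 ratio of CPM + 5. Genes needed 50 UMIs or more in the pair. The added 5 CPM understates changes of low genes. The median over the members was -0.08 for 2DG over control, -0.05 for 2FF over control, -0.05 for anti-PD-L1 over control, 0.01 for 2DG plus anti-PD-L1 against anti-PD-L1 alone and -0.05 for 2FF plus anti-PD-L1 against the same. Over all genes the medians were -0.02, -0.06, -0.00, -0.08 and -0.07. Adding anti-PD-L1 to 2DG gave 0.07 (all genes -0.06), and adding it to 2FF gave -0.12 (all genes -0.01). No member that reached 1.5-fold belonged to the glycosidases.

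Few members reached 1.5-fold in macrophages. For 2DG over control, 0 of 35 were higher and 2 lower (all genes 3.89% and 5.23%), namely Atp6v0d2 (-1.23, counting SE 0.13) and Npc1 (-0.60, SE 0.08). For 2FF over control, 2 of 36 were higher and 2 lower (all genes 5.46% and 7.95%). Ctss (0.78) and Cd63 (0.73) were higher, and Atp6v0d2 (-0.86) and Npc1 (-0.68) were lower. For anti-PD-L1 over control, 0 of 35 were higher and 2 lower (all genes 4.34% and 5.0%), Atp6v0d2 (-0.78) and Lgmn (-0.70, SE 0.02). These 3 comparisons share the control library, so that a low or high value there enters all of them.

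With the anti-PD-L1 library as the base, 1 of 36 was higher and 0 lower in 2DG plus anti-PD-L1 (all genes 2.84% and 3.37%), and likewise 1 and 0 in 2FF plus anti-PD-L1 (all genes 1.96% and 1.96%). The member was Lgmn in both, with 0.78 and 0.79, and both rest on the same low anti-PD-L1 value. Lamp2 came next in each, with 0.47 and 0.51, and Psap (-0.45 and -0.51) and Tfeb (-0.51 and -0.42) were among the 3 lowest. For 2DG plus anti-PD-L1 over 2DG, 0 members passed either way (all genes 2.61% and 2.41%), and Gla (0.47) and Tfeb (-0.41) were at the ends. For 2FF plus anti-PD-L1 over 2FF, 0 were higher and 1 lower (all genes 1.45% and 0.752%), Cd63 with -0.74.

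**Figure D4:**
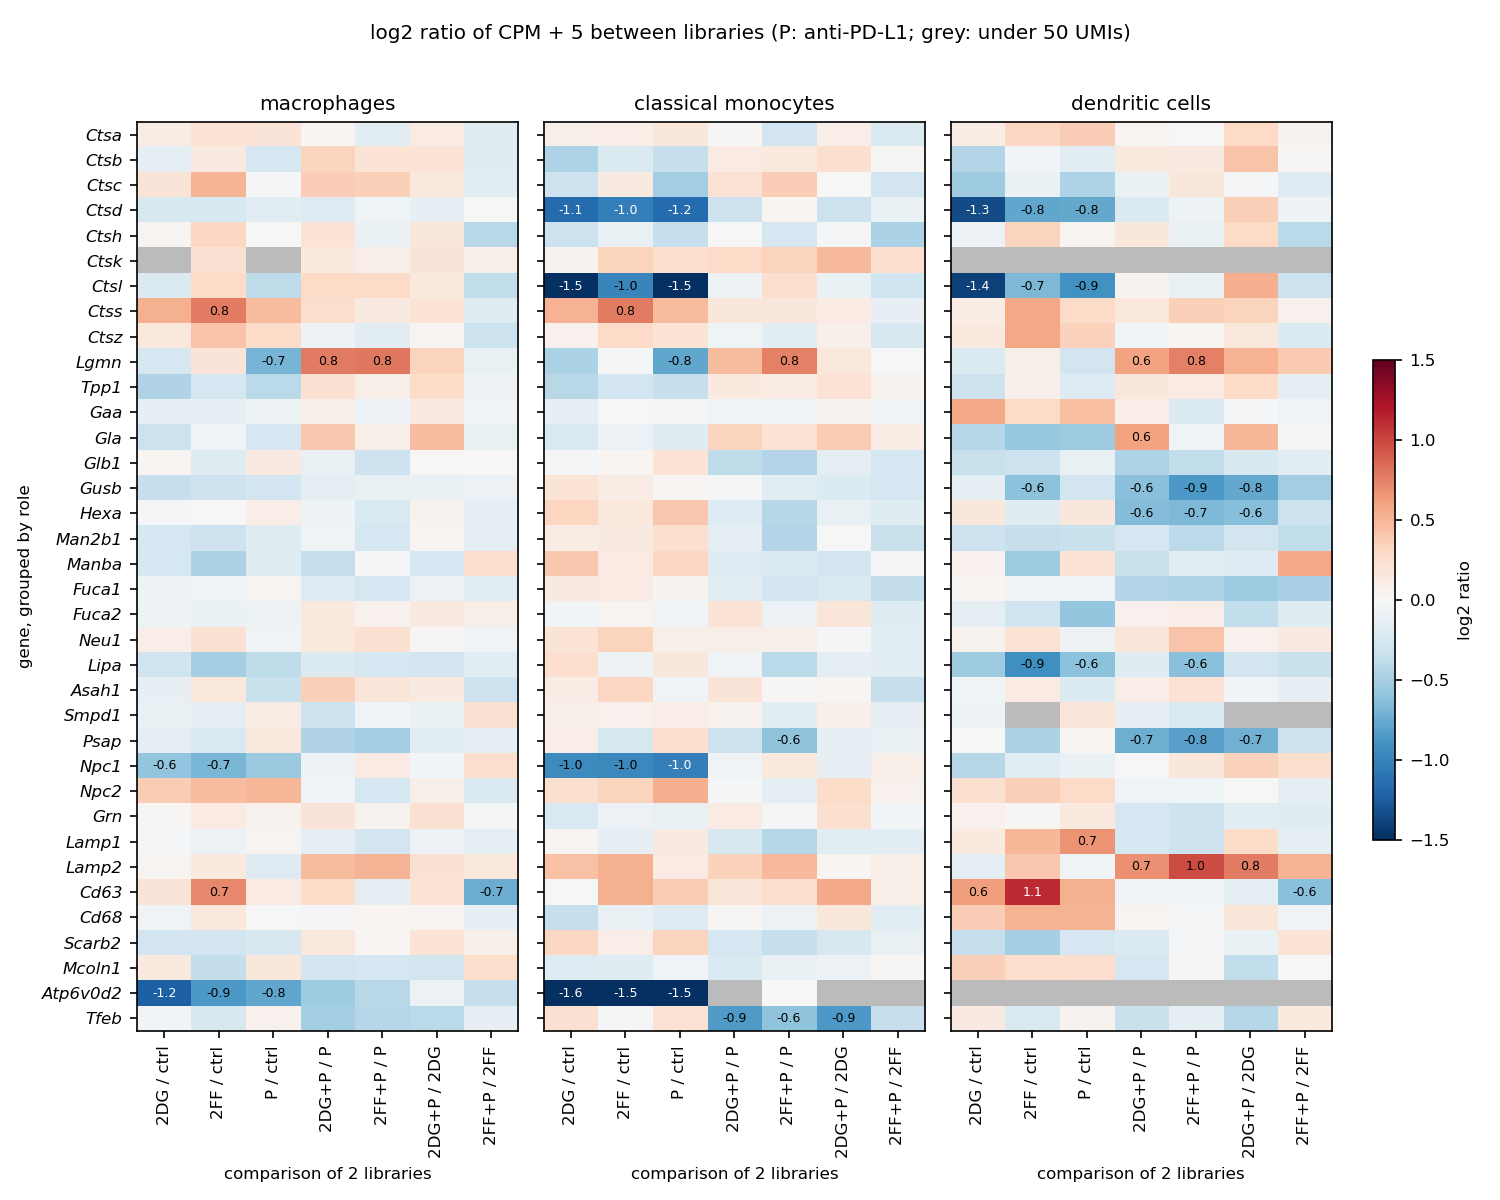
Log2 ratio of CPM + 5 (color) of the 36 genes (rows, grouped by role) between 2 libraries (columns, 7 comparisons; P stands for anti-PD-L1 and ctrl for control) in macrophages, classical monocytes and dendritic cells. Values past 1.5-fold are printed, and grey cells had under 50 UMIs; Ctsd, Ctsl, Npc1 and Atp6v0d2 are low over control in monocytes.

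The 2FF value of Cd63 depended on the cells counted. In macrophages with no UMI of Spp1 and Gpnmb, genes of lipid-laden tumor macrophages, the log2 ratio of Cd63 for 2FF over control was -0.01 in place of 0.73. Cd63 was also highest in the 2FF library in dendritic cells (174 CPM against 77.7 to 123) and T cells (21.4 CPM against 7.26 to 11), but not in monocytes or neutrophils. Macrophages with either Spp1 or Gpnmb were 74.2% in control, 54.6% in 2DG, 61.7% in 2FF, 55.4% in anti-PD-L1, 48.5% in 2DG plus anti-PD-L1 and 62.4% in 2FF plus anti-PD-L1. Depth was not matched, since the median macrophage held 12446.5 UMIs in control and 9004 to 9956 in the others.

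The control library stood apart from all 5 others for 4 members in classical monocytes. Ctsd was 737 CPM in control, 329 in 2DG, 356 in 2FF, 327 in anti-PD-L1, 263 in 2DG plus anti-PD-L1 and 333 in 2FF plus anti-PD-L1. Over the libraries listed in that order, Ctsl gave 793, 274, 397, 270.1, 256 and 323 CPM, Npc1 72.2, 34.7, 34.6, 33.0, 31.5 and 37.3 CPM and Atp6v0d2 12.6, 0.854, 1.08, 1.26, 1.18 and 1.26 CPM. In each case the control value lay more than 1.5-fold above the highest of the other 5 libraries, whereas 0 members lay as far below them. How many of all genes lay as far apart was not counted, in monocytes or in the other classes. The counts are therefore not read as particular to the lysosomal genes. The share of monocytes with a UMI of Ctsd was 89.5% in control and 62.2% to 73.7% elsewhere. These shares are not matched for depth, since the median monocyte held 10344 UMIs in control and 6751.5 to 8199.5 in the others.

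As log2 ratios over control in monocytes, Ctsd gave -1.15 in 2DG, -1.04 in 2FF and -1.16 in anti-PD-L1, with counting SEs of 0.02, 0.02 and 0.02. Ctsl gave -1.51, -0.99 and -1.54, Npc1 -0.96, -0.96 and -1.02, and Atp6v0d2 -1.59, -1.53 and -1.49. Members past 1.5-fold numbered 0 higher and 4 lower for 2DG (all genes 10.9% and 5.74%), 1 and 4 for 2FF (9.86% and 5.78%), and 0 and 5 for anti-PD-L1 (10.8% and 5.16%), of 36 tested. The member higher in 2FF was Ctss (0.78), and the added lower one in anti-PD-L1 was Lgmn (-0.78). Ctss ran against the 4 genes, at 1442, 2064, 2474, 2003, 2250.2 and 2263 CPM, with control lowest.

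Control was the highest library for all 4 of these members in neutrophils. In macrophages, dendritic cells and T cells it was highest for some of them only. Neutrophil Ctsd was 711 CPM in control and 453 to 626 in the others, a gap of less than 1.5-fold. In macrophages the Ctsd ratios over control were -0.24, -0.24 and -0.17, within 1.5-fold, Ctsl was highest in 2FF, and Atp6v0d2 alone stood apart. In dendritic cells Ctsd gave 117, 43.3, 66.3, 66.7, 57.0 and 62.9 CPM and Ctsl 73.3, 24.6, 44.1, 36.8, 38.3 and 34.1 CPM, with control above all others by 1.5-fold in both. Npc1 in control dendritic cells, at 32.1 CPM, lay within the range of the others (22.5 to 34.1). In neutrophils the gap was widest for Atp6v0d2, at 137, 8.04, 18.0, 30.8, 50.4 and 19.2 CPM, and it was also found for Ctsl (361 CPM against 92.8 to 166), Npc1 (123 against 31.3 to 62.0), Gla (317 against 145 to 199), Fuca2 (103 against 51.3 to 64.5) and Ctsk. In T cells Ctsl was again highest in control (65.4 CPM against 15.3 to 41.0). So were Npc1 (34.4 CPM against 23.2 to 33.5) and, at a low level, Atp6v0d2 (3.93 against 0.320 to 1.48). Ctsd in T cells ran the other way, at 321, 464, 518, 584, 451 and 440.1 CPM, with control lowest.

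The neutrophil value of Ctsk came mostly from 1 cell. Of 451 Ctsk UMIs in control neutrophils, 383 lay in a single cell and 47 of 3411 cells had any, so its level of 24.9 CPM does not describe neutrophils. Atp6v0d2 was not of this kind, since its 2482 UMIs in control neutrophils were spread over 496 cells and the 10 highest cells held 13.1%. Atp6v0d2 UMIs in the other 5 libraries numbered 13 to 50 in neutrophils. In control monocytes Atp6v0d2 had 368 UMIs in 136 cells, and in the other libraries 10 to 30 UMIs.

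Other values moved with the control library. It held 3411 neutrophils, and 5 neutrophil genes (S100a8, S100a9, Cxcr2, Retnlg and Mmp9) stood in control monocytes at 1.88% of their level in neutrophils. The CPM that neutrophil RNA would bring to monocytes was reckoned from that proportion, given the makeup of gated neutrophils. It was 13.3 for Ctsd, 6.78 for Ctsl, 2.31 for Npc1 and 2.57 for Atp6v0d2. Whether free RNA has that makeup was not tested. In monocytes with no UMI of these 5 genes, the log2 ratios over control in 2DG, 2FF and anti-PD-L1 were -1.12, -0.93 and -1.05 for Ctsd, -1.56, -0.95 and -1.54 for Ctsl, -0.99, -0.93 and -0.998 for Npc1, and -1.52, -1.44 and -1.45 for Atp6v0d2. Of 14 interferon-response genes tested in monocytes, 13, 14 and 14 were higher by 1.5-fold than in control in the same 3 libraries. Monocytes with a UMI of Spp1 or Gpnmb were 75.7% in control and 22.4% to 41.4% in the others, which is not matched for depth either. Among monocytes without a UMI of either gene the Ctsd ratios were -0.80, -0.67 and -0.86. In dendritic cells without either gene they were -0.94, -0.20 and -0.43, so those of 2FF and anti-PD-L1 no longer reached 1.5-fold. In dendritic cells that led by 2 markers or more they were -0.35, -0.22 and -0.01. The part of neutrophil RNA, of interferon response and of the Spp1 and Gpnmb state in these differences was not tested further. Mouse and treatment cannot be told apart with 1 mouse per library.

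**Figure D5:**
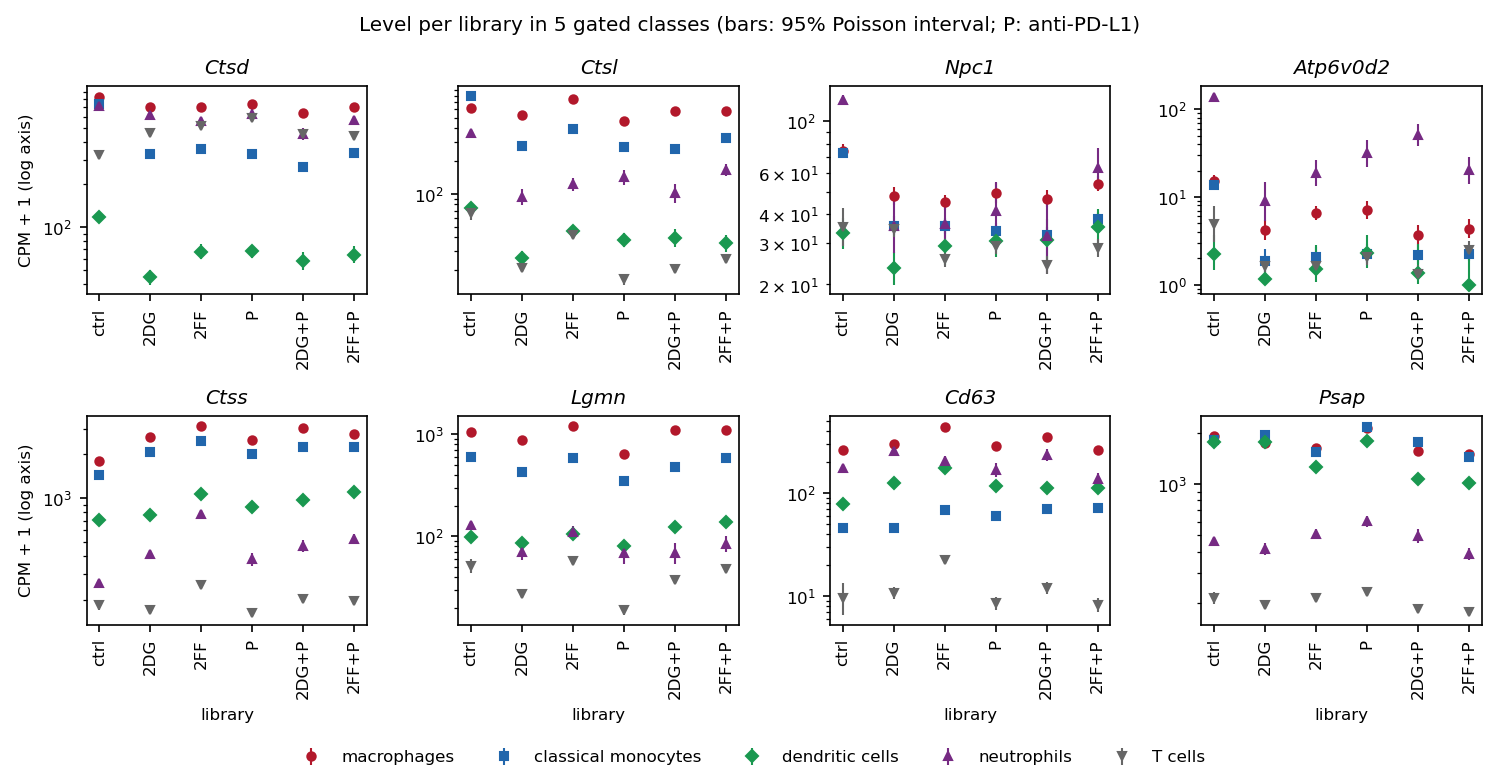
Level of 8 members (panels) in 6 libraries (x axis; ctrl is control, P is anti-PD-L1) in 5 gated classes (symbols), as CPM + 1 on a log axis with 95% Poisson intervals. Control is the highest monocyte value for Ctsd, Ctsl, Npc1 and Atp6v0d2 and the lowest for Ctss, and anti-PD-L1 is the lowest macrophage value for Lgmn.

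Promoter windows of Ctsd and Ctsl, both high in control monocytes, of Ctss, which was low there, and of Gla and Mcoln1, which hold a longer form of the motif, are shown with the letters CACGTG, the core bound by TFEB and other E-box factors. RefSeq promoters (build GRCm38.p6, 250 bases before to 50 after the gene start) were found for 31 of the 36 genes, in 36 windows, and 9 windows held CACGTG, which reads the same on both strands. Among all 32851 promoters of this length, 7.15% held it. The longer form TCACGTGA, which contains it, was in 4 windows of members (Ctsa, Ctsd, Gla and Mcoln1) and in 0.974% of all promoters. The sequences read 5′ to 3′ on the gene's strand, with CACGTG in capitals.
Ctsd promoter (chr7:142387778-142388077, minus strand): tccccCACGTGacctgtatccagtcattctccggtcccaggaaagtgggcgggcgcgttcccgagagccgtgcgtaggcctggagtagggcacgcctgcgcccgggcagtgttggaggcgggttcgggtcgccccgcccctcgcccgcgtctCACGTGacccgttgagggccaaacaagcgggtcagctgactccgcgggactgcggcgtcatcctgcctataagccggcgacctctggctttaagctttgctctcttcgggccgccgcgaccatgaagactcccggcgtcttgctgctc
Ctsl promoter (chr13:64370471-64370770, minus strand): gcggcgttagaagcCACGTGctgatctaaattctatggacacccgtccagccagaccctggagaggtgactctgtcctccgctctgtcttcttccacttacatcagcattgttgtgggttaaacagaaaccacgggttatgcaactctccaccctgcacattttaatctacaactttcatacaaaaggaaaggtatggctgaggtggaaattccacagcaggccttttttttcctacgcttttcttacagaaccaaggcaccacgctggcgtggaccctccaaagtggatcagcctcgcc
Gla promoter (chrX:134600956-134601255, minus strand): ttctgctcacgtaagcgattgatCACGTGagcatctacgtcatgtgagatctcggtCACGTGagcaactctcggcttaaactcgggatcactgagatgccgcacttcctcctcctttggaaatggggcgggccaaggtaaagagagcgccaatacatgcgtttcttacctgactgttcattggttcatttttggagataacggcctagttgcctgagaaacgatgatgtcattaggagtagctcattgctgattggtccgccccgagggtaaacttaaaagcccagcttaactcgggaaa
Mcoln1 promoter (chr8:3500269-3500568, plus strand): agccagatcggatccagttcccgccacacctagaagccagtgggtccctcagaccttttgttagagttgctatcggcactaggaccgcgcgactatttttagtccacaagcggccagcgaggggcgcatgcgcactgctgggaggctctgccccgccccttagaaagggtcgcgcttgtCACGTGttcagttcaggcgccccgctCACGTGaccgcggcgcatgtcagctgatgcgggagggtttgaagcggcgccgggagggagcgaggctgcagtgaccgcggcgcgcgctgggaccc
Ctss promoter (chr3:95526536-95526835, plus strand): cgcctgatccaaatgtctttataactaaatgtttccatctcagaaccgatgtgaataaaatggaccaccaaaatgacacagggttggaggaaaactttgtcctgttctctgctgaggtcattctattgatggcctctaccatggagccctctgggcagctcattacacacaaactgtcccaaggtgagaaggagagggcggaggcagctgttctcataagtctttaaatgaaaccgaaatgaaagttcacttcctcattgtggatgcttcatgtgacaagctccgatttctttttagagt
The Ctsd window held the motif 245 and 98 bases before the RefSeq start, the Ctsl window 236 bases before it, and the Ctss window did not hold it. Lamp1 held it 4 times, at 61, 45, 28 and 15 bases before its start. Besides Ctsd and Ctsl, the motif was held by Ctsa, Gaa, Gla, Glb1, Lamp1, Lgmn and Mcoln1. None of these was among the members for which control stood apart in monocytes. A match describes letters only, and a link between the motif and the control level was not tested. The genes lie at chr7:142375911-142388038, minus strand (Ctsd), chr13:64359337-64370890, minus strand (Ctsl) and chr3:95526786-95556403, plus strand (Ctss) in the GENCODE annotation of GRCm38. The GENCODE spans of Ctsd and Ctsl begin upstream of the RefSeq starts from which these distances were counted. The Ctsd window overlaps its span in part, and the Ctsl window with its motif lies wholly inside its span. No window was found for Npc1 and Atp6v0d2, which were also high in control monocytes.

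Lgmn was low in the anti-PD-L1 library in more than 1 class. In monocytes it gave 596, 429, 582, 345, 480.3 and 586 CPM, lowest in anti-PD-L1 as in macrophages. In dendritic cells it gave 98.0, 84.6, 104, 79.6, 123 and 138 CPM, and in T cells, where the level was a small fraction of that in macrophages, 50.1, 26.0, 56.7, 17.9, 36.5 and 47.2 CPM. The anti-PD-L1 library was the lowest in all 4 of these classes and, by a small margin, in neutrophils, with 128, 69.9, 110.0, 67.3, 67.5 and 83.7 CPM. 2FF plus anti-PD-L1 was higher than anti-PD-L1 in monocytes by 0.75 and in dendritic cells by 0.76, and 2DG plus anti-PD-L1 by 0.47 and 0.60, on the log2 scale. In macrophages the sign of anti-PD-L1 on Lgmn differed by partner, with -0.70 over control, 0.33 over 2DG and -0.11 over 2FF.

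Tfeb and Psap were lower, and Lamp2 higher, in the combination libraries than in anti-PD-L1 alone in several classes. Both combinations are set against the same anti-PD-L1 library, and the classes come from the same mice. That library had the highest Psap in macrophages and monocytes and the lowest Lamp2 in macrophages. Tfeb in monocytes gave 36.9, 44.1, 36, 43.8, 22.0 and 27.2 CPM, with both combinations lowest. Its log2 ratio over anti-PD-L1 was -0.85 (counting SE 0.08) in 2DG plus anti-PD-L1 and -0.60 (0.07) in 2FF plus anti-PD-L1. In monocytes 0 members were higher and 1 lower in the first comparison (all genes 1.84% and 1.86%), and 1 higher and 2 lower in the second (2.53% and 1.47%), where Psap (-0.60) was the other lower one and Lgmn the higher. For 2DG plus anti-PD-L1 over 2DG, Tfeb alone passed, with -0.86 (0 higher and 1 lower, all genes 2.23% and 1.44%), and for 2FF plus anti-PD-L1 over 2FF 0 members did (1.96% and 0.963%). Psap in monocytes gave 1813, 1945, 1534, 2168, 1752 and 1426 CPM, lowest in 2FF plus anti-PD-L1. Lamp2 in monocytes gave 568, 775, 823, 619.7, 789 and 872 CPM, highest in the same library and lowest in control.

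In dendritic cells more members, and a larger share of all genes, passed 1.5-fold over anti-PD-L1 alone than in monocytes. Over control the members that passed were no more numerous than in monocytes. Over control, 1 was higher and 2 lower in 2DG (all genes 2.97% and 4.68%), 1 and 4 in 2FF (5.99% and 9.30%), and 1 and 3 in anti-PD-L1 (4.72% and 6.18%), of 34, 33 and 34 tested. Over anti-PD-L1 alone, 3 were higher and 3 lower in 2DG plus anti-PD-L1 (3.83% and 6.52%) and 2 and 4 in 2FF plus anti-PD-L1 (3.84% and 5.92%). Lamp2 was higher in both (0.69 and 0.97), and Psap (-0.73 and -0.82), Gusb (-0.63 and -0.86) and Hexa (-0.64 and -0.67) were lower. For 2DG plus anti-PD-L1 over 2DG, 1 was higher and 3 lower (4.95% and 7.64%), again Lamp2 against Psap, Gusb and Hexa, and for 2FF plus anti-PD-L1 over 2FF 0 and 1 (2.63% and 3.1%), Cd63 with -0.63.

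The types of dendritic cell behind these sums differed strongly in the same genes and were not present in equal numbers. Type 1 cells numbered 85, 103, 53, 76, 29 and 28 in library order, type 2 cells 142, 247, 200, 269, 193 and 178, and mature cells 112, 136, 120, 132, 67 and 67. Psap was mostly a gene of type 1 cells, at 2568 to 4354 CPM against 723 to 1205 in type 2 and 341 to 507 in mature cells, with no overlap between types over the 6 libraries. Cd63 belonged to mature cells, at 306 to 618 CPM against 2.19 to 20.6 and 6.72 to 15.4 in types 1 and 2, and so did Lamp1, at 364 to 552 against 37.6 to 79.8 and 126 to 196. Man2b1 was highest in type 1 cells (237 to 356 CPM) and lowest in mature cells (27.2 to 48.9). Ctss was highest in type 2 cells (1002 to 1424 CPM). No test was made between these types.

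Within type 2 cells, the most numerous, Lamp2 gave 315, 286, 412, 284, 426 and 547 CPM, and both combination libraries were still highest. Psap gave 1133, 1157, 831, 1205, 914 and 723 CPM there, and 2FF plus anti-PD-L1 was lowest. Within type 1 cells Psap gave 3412, 3753, 3299.8, 4354, 2568 and 3242 CPM, lowest in 2DG plus anti-PD-L1, and within mature cells 501, 436, 341, 442, 507 and 375 CPM, where 2DG plus anti-PD-L1 was the highest. Gusb within type 2 cells gave 80.0, 65.5, 46.6, 51.3, 38.5 and 32.0 CPM, with control highest and both combinations lowest. Ctsd within type 2 cells gave 157, 66.2, 88.2, 94.3, 68.1 and 72.8 CPM, with control above the rest. Cd63 within mature cells gave 306, 505, 618, 456, 522 and 473 CPM, lowest in control and highest in 2FF.

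Anti-PD-L1 had been given in 3 pairs of libraries that share none, which are control with anti-PD-L1, 2DG with 2DG plus anti-PD-L1, and 2FF with 2FF plus anti-PD-L1. In macrophages 0 of 35 members passed 1.5-fold the same way in all 3 pairs, either higher (all genes 0.103%) or lower (0.0187%). The count was also 0 in monocytes (all genes 0.171% and 0.00902%), dendritic cells (0.334% and 0.519%), neutrophils (0.113% and 0.0376%) and T cells (0.0350% and 0.0175%). At any size of change, 3 members were lower in all 3 macrophage pairs, Atp6v0d2, Gusb and Lipa, and 0 were higher (all genes 14.9% and 9.05%). Gusb gave -0.29, -0.10 and -0.08, and Lipa -0.38, -0.29 and -0.15. In monocytes, Ctsk, Cd63, Npc2 and Lamp2 were higher in each pair and Ctsd, Ctsh and Ctsl lower (all genes 11.5% and 10.2%). In dendritic cells, 2 members were higher and 8 lower (all genes 14.3% and 18.7%), the latter including Gusb, Lipa and the glycosidases Fuca1, Fuca2, Man2b1 and Glb1. A difference between the effects of anti-PD-L1 with and without 2DG or 2FF was not tested.

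A test over all 6 libraries of a class was possible where the agents were assumed to act additively. The edgeR fit held 1 term for each of 2DG, 2FF and anti-PD-L1 and left 2 residual degrees of freedom, with 1 mouse per library, and it was added after the values were seen. At adjusted p under 0.05 in edgeR, 0 members were called for any of the 3 agents in any of the 5 classes. Members with an unadjusted p under 0.05 numbered 1, 3 and 1 of 36 in macrophages for 2DG, 2FF and anti-PD-L1, in that order, 0, 1 and 1 of 36 in monocytes, 1, 6 and 6 of 34 in dendritic cells, 3, 2 and 0 of 33 in neutrophils, and 1, 0 and 1 of 36 in T cells. Of all genes, 7.46%, 9.52% and 4.30% had an unadjusted p under 0.05 in macrophages, and 6.21%, 5.94% and 4.72% in monocytes. The shares were 6.77%, 13.8% and 12.4% in dendritic cells, 6.62%, 4.88% and 1.53% in neutrophils, and 3.56%, 4.64% and 3.82% in T cells. At adjusted p under 0.05 in edgeR, 0.0151% of all genes were called higher with anti-PD-L1 in macrophages. In dendritic cells 0.0342% were called higher and 0.00855% lower with 2DG, 0.0684% and 0.0770% with 2FF, and 0.171% and 0.222% with anti-PD-L1, and the other terms called 0 genes. The smallest adjusted p of a member was 0.122, for 2FF in dendritic cells.

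Neutrophils and T cells gave the remaining counts over control. In neutrophils 4, 4 and 2 of 36 members were higher by 1.5-fold in 2DG, 2FF and anti-PD-L1 (all genes 25.7%, 25.6% and 19.0%), and 11, 8 and 11 were lower (10.9%, 11% and 11.7%). Man2b1 was the only one higher in all 3, at 48.6, 87.2, 106, 102, 61.5 and 62.0 CPM. Ctsb was lower in all 3, at 869, 369.9, 529, 546, 582 and 583 CPM, and Cd68 likewise, at 158, 74.2, 94.2, 98.2, 88.7 and 119 CPM. In T cells 0, 3 and 2 members were higher (all genes 2.10%, 5.16% and 3.59%) and 3, 1 and 2 lower (4.61%, 5.79% and 5.61%).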

How the data were processed

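Cells of 6 libraries, 1 mouse each, were profiled by 3′ single-cell RNA sequencing. The deposited matrices hold raw counts, UMIs per gene and barcode, made by the authors with Cell Ranger against mm10 (version 3.1.0 per the labels, 7.0.0 per the matrix header). Cells with at least 250 genes and at most 5% mitochondrial UMIs were kept. A cell was given the class with the largest share of its markers detected, with at least 3 markers and no tie, and no doublet caller was run. UMIs were summed per class and library and scaled to CPM. Exact Poisson 95% intervals and counting SEs were computed. Classes were compared with edgeR 4.0.16 (R 4.3.3; TMM, library as a term), tested on simulated data. Libraries were compared by the log2 ratio of CPM + 5 where both held at least 50 UMIs together, and a member was counted at 1.5-fold. An additive edgeR fit of the 3 agents over the 6 libraries was added. Python 3.11.15 was used.

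The members and lists were chosen with earlier results of these data known. Values by library were given for the 10 members with the highest mean macrophage level, members past 1.5-fold the same way in all 3 anti-PD-L1 pairs, the 3 highest and 3 lowest of each macrophage comparison, and Tfeb, Mcoln1, Ctsk and Atp6v0d2. Members of other classes, and the types of dendritic cell, were chosen after their values were seen. Alternatives changed the gate, the cell filters, the added CPM, the UMI minimum, the weighting of cells, the normalization and tool (DESeq2 1.42.0), and the libraries included.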

Additional observations from a re-analysis of the deposited data

Results flagged for a closer look

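Among the ratios of macrophages to another class within a library (log2 of CPM + 5), 5 of the 77 groups of 6 ratios examined had 1 library far from the other 5, and chance marks about 1 in 20 such groups. The groups were those of the members called between classes and the medians. Cd68 over dendritic cells was 1.76 in control and 1.19 to 1.39 in the others. Neu1 over dendritic cells was 0.89 in 2FF plus anti-PD-L1 and 1.07 to 1.12 in the others. Over neutrophils, Glb1 was 1.51 in 2FF (others 2.17 to 2.38) and Grn 2.35 in 2DG (others 2.55 to 2.66). Tpp1 over T cells was 2.00 in control and 1.38 to 1.49 in the others.

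Values were flagged where 1 anti-PD-L1 pair passed 1.5-fold and another had the opposite sign, beyond its counting interval and a set minimum size. On the log2 scale, 4 values met this among macrophages, monocytes and dendritic cells. Opposite signs of any size were common, since 0 of 35 members were higher and 3 lower in all 3 macrophage pairs. The differences were not tested. Lgmn in macrophages was -0.70 for anti-PD-L1 over control and 0.33 for 2DG plus anti-PD-L1 over 2DG. In dendritic cells the same 2 comparisons gave -0.77 and 0.36 for Ctsd, and -0.91 and 0.55 for Ctsl. Cd63 in dendritic cells was -0.63 for 2FF plus anti-PD-L1 over 2FF and 0.53 for anti-PD-L1 over control.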

How the results depend on the processing

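Of 123 alternative values of the medians and counts, 117 stayed within the limits set for them, and of 645 values of single members 432 stayed, 211 moved and 2 turned. In macrophages with no UMI of Spp1 and Gpnmb, the median log2 ratio of the members was -0.15 for 2FF over control, -0.16 for anti-PD-L1 over control and -0.027 for 2FF plus anti-PD-L1 over 2FF. Members called between macrophages and monocytes numbered 1 with no library term and 4 in cells that led by 2 markers. In the 3 anti-PD-L1 pairs of macrophages, 3 members moved the same way at any size of change. In cells with no UMI of Spp1 and Gpnmb, 2 values for 2FF over control turned, Cd63 in macrophages to -0.0051 and Ctsl in dendritic cells to 0.017. The cause was not tested. Leaving out 1 library at a time gave 2 to 3 members called over monocytes, 18 to 19 over dendritic cells, 20 to 22 over neutrophils and 29 to 31 over T cells. Of 36 values past 1.5-fold, 33 remained past it without cells carrying 2 markers of another lineage, 29 without cells with neutrophil genes, 24 without cells with Spp1 or Gpnmb, 32 with cells weighted equally and 29 in cells that led by 2 markers. The filter on neutrophil genes and these recounts of single members were chosen after seeing the data. The labels carry no replicate numbers. An additive edgeR fit with the partner agent as a block, added after seeing the data, called 0 members in macrophages for anti-PD-L1. At an unadjusted p under 0.05 in edgeR it held 1 of 36 members and 4.30% of all genes. In dendritic cells depth is limited by the number of cells, with 28 of type 1 in 1 library.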
